A study of Mus musculus with 4 samples.

Results

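The genes Ptpre, Ptp4a2 and Ptprc encode 3 tyrosine phosphatases whose mRNAs carried NAT10 binding sites in 32D, a mouse blood cell line that needs interleukin-3 to grow. NAT10 is the enzyme that writes N4-acetylcytidine (ac4C) on RNA. The 35 peaks that the authors' list assigns to these 3 gene symbols were taken, of 4172 distinct peaks on 1626 symbols. Ptpre had 16, Ptp4a2 had 15 and Ptprc had 4. The genes were chosen by values of this same list, the folds and numbers of their peaks, so every count and fold given here for them is a description, and no test was made of them.

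The series set 2 NAT10 immunoprecipitates against 2 inputs by eCLIP, in which UV light (150 mJ, 254 nm) crosslinks proteins to RNA, an antibody collects the protein, and the RNA fragments that come with it are read by sequencing. The immunoprecipitates used 20 µg of an antibody to NAT10, and the inputs had no antibody. All 4 libraries came from wild-type 32D cells grown with interleukin-3 at 10 ng/mL, with no mutant and no other treatment, so no condition could be compared. The stated purpose was to screen for direct NAT10 targets among mRNAs, with haematopoietic stem cells in view; 32D is a single cell line and not a population of stem cells. Separate cultures for libraries with the same label are not stated. The 4 libraries were summarised by the authors in 1 list, which gives each peak a fold and a p but no value per library. The spread between replicates is therefore unknown, and so are the library totals.

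The labels describe the cells as bone marrow lymphoblastocytes. Of 15 myeloid and mast cell marker genes 5 had a listed peak (Csf2rb, Gata2, Prtn3, Srgn and Ptprc itself), against 7.33% of all 21900 protein-coding genes. Ptprc was chosen for its peaks and so counts by construction, and it is not particular to myeloid cells. Kit, Mpo, Elane, Spi1 and Cebpa were among the myeloid markers without a listed peak. None of 13 lymphoid markers, Cd3e and Pax5 among them, had one, nor did any of 5 erythroid and 5 non-blood markers. A peak needs NAT10 binding as well as the RNA, so these counts do not measure expression.

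Protein tyrosine phosphatases remove the phosphate that kinases place on tyrosine, and so set how long a receptor signal lasts. Ptprc encodes CD45, the abundant surface phosphatase of nucleated blood cells, which removes the inhibitory phosphate from Src-family kinases and restrains Janus kinases. Ptpre encodes PTP epsilon, made in a receptor form and a cytoplasmic form, which acts on Src and on potassium channels. Ptp4a2 encodes PRL-2, a small lipid-anchored phosphatase that binds the CNNM magnesium transporters and that mouse haematopoietic stem cells need for self-renewal.

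The listed peaks of the 3 mRNAs differed in fold, number and place. Ptpre had a strong unbroken stretch of 411 nt in the 3' UTR, Ptp4a2 had moderate peaks along its whole transcript, and Ptprc had 4 weak peaks in exons alone. Strong, moderate and weak refer here to the fold alone, which does not separate binding from the amount of each mRNA. Fold is given as the authors' log2 ratio of immunoprecipitate over input. In the whole list it ran from 3.00 to 11.00 with a median of 4.60, which is 24.3-fold. The median of a gene's peaks was 8.39 for Ptpre (335-fold), 4.92 for Ptp4a2 (30.3-fold) and 4.34 for Ptprc (20.2-fold). By class, all 16 Ptpre peaks lay in the 3' UTR and all 4 Ptprc peaks in the authors' exon class, which leaves out the untranslated regions. Ptp4a2 had 4 peaks in the 5' UTR, 5 in exons and 6 in the 3' UTR. In the whole list 57.6% of peaks were of the 3' UTR class, 36.7% of the exon class and 5.68% of the 5' UTR class.

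**Figure D1:**
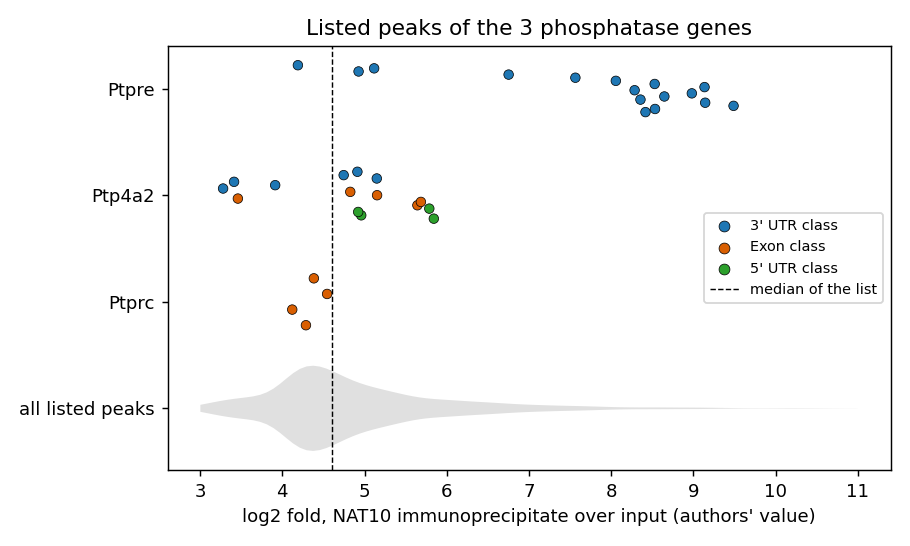
Log2 fold over input (horizontal axis) of each listed peak of Ptpre, Ptp4a2 and Ptprc, coloured by the authors' class, above the distribution of all 4172 listed peaks in grey; height within a gene has no meaning. Most Ptpre peaks lie between 6.75 and 9.49, apart from 3 between 4.19 and 5.12, Ptp4a2 straddles the median of 4.60 (dashed line), and the 4 Ptprc peaks lie just under it.

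Ptpre (ENSMUSG00000041836, chromosome 7, plus strand) had the 5th strongest peak of all gene symbols and the 6th highest median, and tied for the 10th place in number of peaks. Its peaks formed 4 separate stretches. The 13 upstream pieces touched each other without a gap and made up 1 bound stretch of 411 nt, at chromosome 7, 135285962 to 135286372 (GRCm39). No other stretch in the list was cut into as many pieces. Those of Mtdh, Bin2 and Actb followed with 10 each, and only 4 of 3453 joined stretches had 10 or more. In length the Ptpre stretch ranked 7th, against a median of 97 nt over all stretches.

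Within this stretch the fold formed a plateau with an edge on the downstream side. The log2 fold was 8.42 over the opening 99 nt and 8.53 over the next 26 nt. It reached 9.49 (718-fold) in a piece of 29 nt at positions 135286087 to 135286115, the strongest of the gene. It stood at 9.14 in the adjoining piece of 69 nt. These 4 pieces hold the upstream end of the stretch, and the signal there began at a high level with no weaker flank listed.

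The middle of the stretch rose, dropped and rose again. Pieces of 12, 12 and 25 nt had log2 folds of 8.36, 8.65 and 8.98, and were followed by 8.28 over 8 nt and 9.14 over 24 nt. Neighbouring pieces here and elsewhere in the stretch differed by at most 0.96 on the log2 scale, and the rule by which the authors divided touching peaks was not stated. The last 4 pieces then stepped down through 8.53, 8.06, 7.56 and 6.75, each lower than the one before. Averaged over its bases the stretch had a log2 fold of 8.55.

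High folds of this size were rare. A log2 fold of 8 or more was reached by 81 peaks (1.94% of the list) on 24 genes, and 11 of these peaks were pieces of the Ptpre stretch. Of the 30 peaks at 9 or more, 3 were Ptpre pieces. Since the pieces touch, they are counted here as 1 stretch. Whether it holds 1 NAT10 contact or several was not tested.

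A further 3 Ptpre peaks lay 1126 nt downstream of the stretch. Their log2 folds were 4.93 at 135287499 to 135287574, 5.12 at 135287615 to 135287690 and 4.19 at 135287772 to 135287784. All were weaker than the weakest piece of the stretch, and the nearest of them in strength was lower by 1.64 on the log2 scale. All 16 peaks together spanned 1823 nt and covered 576 nt. With the 3 downstream peaks included, the mean over covered bases was 7.52.

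**Figure D2:**
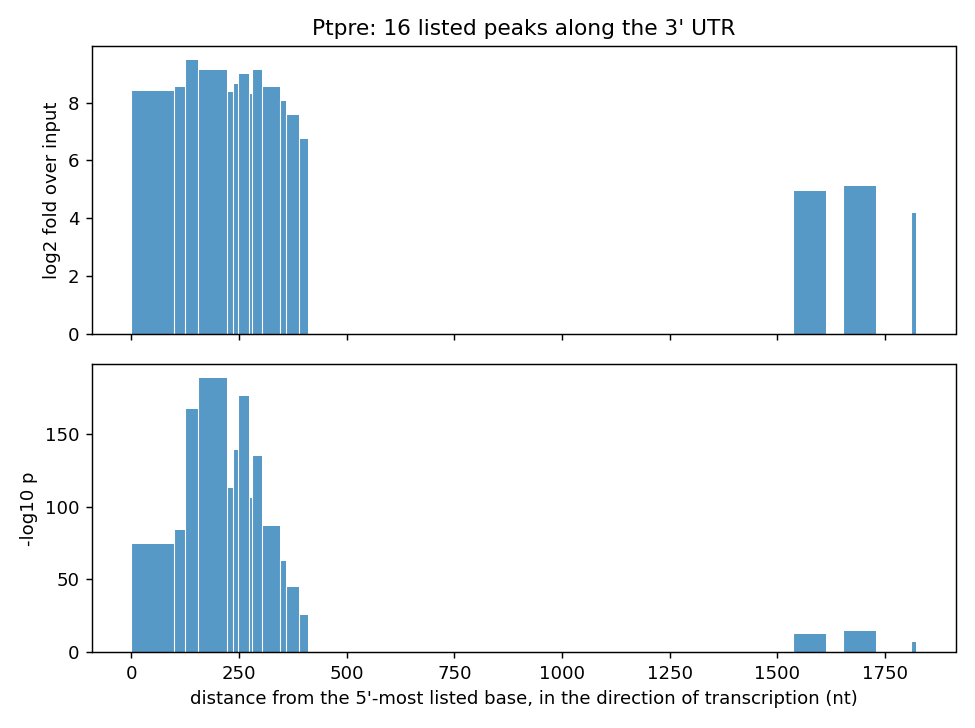
Log2 fold over input (upper panel) and -log10 p (lower panel) of the 16 Ptpre peaks, drawn at their width along the 3' UTR in nt from the 5'-most listed base, with 1 bar per peak. The 13 touching pieces fill 411 nt with folds of 6.75 to 9.49, and the 3 later peaks, after 1126 nt with none listed, reach 5.12 at most.

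The authors' p gave the same stretch but another top piece. The -log10 p was highest, 188, in the 69 nt piece, against 167 in the piece with the highest fold. In the stretch it ran from 25.3 at the downstream edge to 188. Downstream it was 12.7, 14.4 and 7.11. All 16 Ptpre peaks lay above the median of the list, 5.68, as did 49.5% of all peaks. None stood at the ceiling of 400 that 34 peaks of the list reached.

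How many reads stand behind a fold can be read in part from its value. The folds moved in steps that a mean of 2 log2 ratios of whole read counts gives. Each fold then fixes the product of the reads of the 2 immunoprecipitates, divided by the product of the input reads, up to a common divisor. For 82.8% of all peaks the smallest numbers that fitted had 1 input read in each library, as for 30 of the 35 phosphatase peaks (85.7%). Whether such a 1 is a read or a value set in place of 0 was not stated. Where the input was in fact 1 in each library, folds differ between peaks by the immunoprecipitate reads alone. Such folds are not adjusted for how abundant each mRNA is. Multiples fit as well, so the read numbers that follow are the smallest that fit.

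For Ptpre the strongest piece fitted a product of 170289 reads over 1 input read in each library, a geometric mean of 413 reads per immunoprecipitate. Pieces of the stretch fitted geometric means of 62.0 reads at the downstream edge to 413. The reads of neighbouring pieces may be the same fragments. In 2 pieces of the stretch, those of 8.65 and 8.28, the smallest product of input reads that fitted was 2. Peaks of like fold could differ in p. They may do so where the real reads, input included, are a multiple of the smallest that fit, which was not tested. The pieces of 69 nt and 24 nt had nearly equal folds, 9.14, but -log10 p of 188 and 134. The weakest downstream peak shared its fold of 4.19, the commonest in the list, with 109 other peaks, whose median -log10 p was 3.68. Its own was 7.11, higher than in 105 of them.

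**Figure D3:**
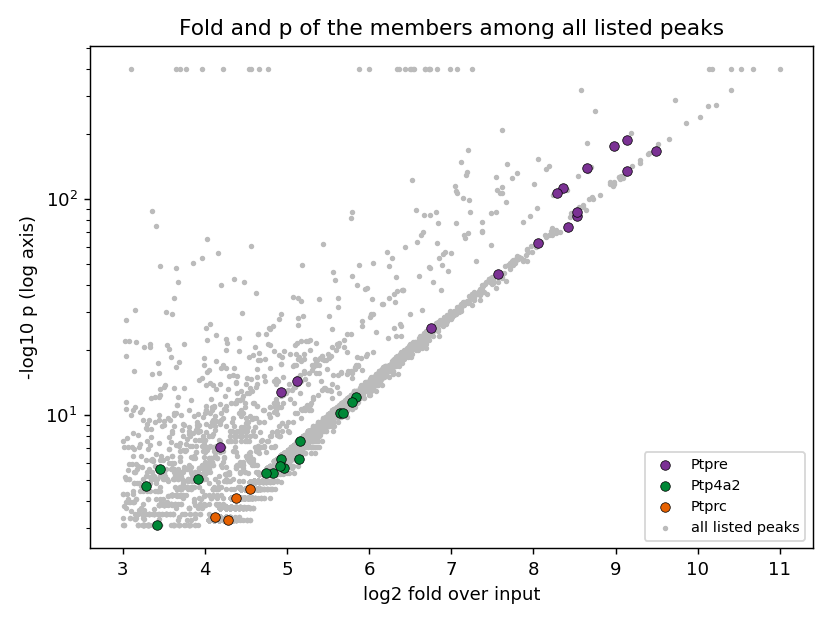
Log2 fold over input (horizontal axis) against -log10 p (vertical log axis) for all listed peaks in grey and for the peaks of Ptpre, Ptp4a2 and Ptprc in colour. Ptprc sits at the low end with -log10 p of 3.27 to 4.53, Ptp4a2 reaches 12.1 and Ptpre 188; points above the dense lower edge have a higher -log10 p than most peaks of like fold.

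Ptp4a2 (ENSMUSG00000028788, chromosome 4, plus strand) was bound at many places with moderate strength. Its 15 peaks formed 11 separate stretches, the 11th place among gene symbols in that count, where Ptpre and Ptprc had 4 each. The peaks lay within 10372 nt of the genome, introns included, and covered 720 nt. It was among the genes with peaks in all 3 classes, which made up 1.96% of genes with a peak.

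The strongest Ptp4a2 peaks lay near the 5' end. The most upstream peak, at chromosome 4, 129732942 to 129732999 in the 5' UTR, had the gene's highest log2 fold, 5.84 (57.4-fold), and its highest -log10 p, 12.1. A touching piece of 82 nt had 4.96. After 238 nt there followed a stretch of 151 nt, at 129733320 to 129733470, whose pieces had log2 folds of 4.92, 5.79 and 5.64. The last of these was the authors' exon class, so this stretch crossed the border that the annotation draws between the 5' UTR and the exon class.

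Exon peaks of Ptp4a2 continued downstream across introns. A peak of 56 nt at 129736462 to 129736517 had a log2 fold of 5.69. Farther on, touching pieces of 31 and 20 nt had 3.46 and 5.15, the sharpest step between touching pieces in the gene. The last exon peak, at 129741507 to 129741558, had 4.83. The piece at 3.46 was lower in fold than all but 5.01% of the list, yet its -log10 p of 5.61 was close to the median of 5.68. It exceeded 5 of 6 other peaks of the same fold, whose median was 3.46.

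The lowest Ptp4a2 log2 folds, 3.28 and 3.41, lay in the 3' UTR, followed by 3.46 in an exon. In transcript order the 3' UTR peaks had 3.28, 3.91, 3.41, 5.15, 4.75 and 4.91. The 3 nearer the exons were thus lower than the 3 farther on. The medians by class were 5.37 in the 5' UTR, 5.15 in exons and 4.33 in the 3' UTR. Over the whole list those medians were 4.50, 4.55 and 4.64 in the same order. The Ptp4a2 ranges overlapped between classes, at 4.92 to 5.84 in the 5' UTR, 3.46 to 5.69 in exons and 3.28 to 5.15 in the 3' UTR. With 4, 5 and 6 peaks of 1 gene and no value per library, this order is a description.

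Of the Ptp4a2 peaks 11 lay above the median fold of the list, as did 49.2% of all peaks, and 8 above its median -log10 p. The steps fitted 1 input read in each library for 13 peaks, with geometric means of up to 33.0 reads per immunoprecipitate, at the most upstream peak. For 2 peaks of the 3' UTR, those of 3.28 and 3.41, the smallest products of input reads were 6 and 2. PRL enzymes are closely similar in sequence, and Ptp4a1 and Ptp4a3 had no listed peak. Whether reads with more than 1 mapping place were kept was not stated, so reads shared with near-identical copies cannot be judged.

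**Figure D4:**
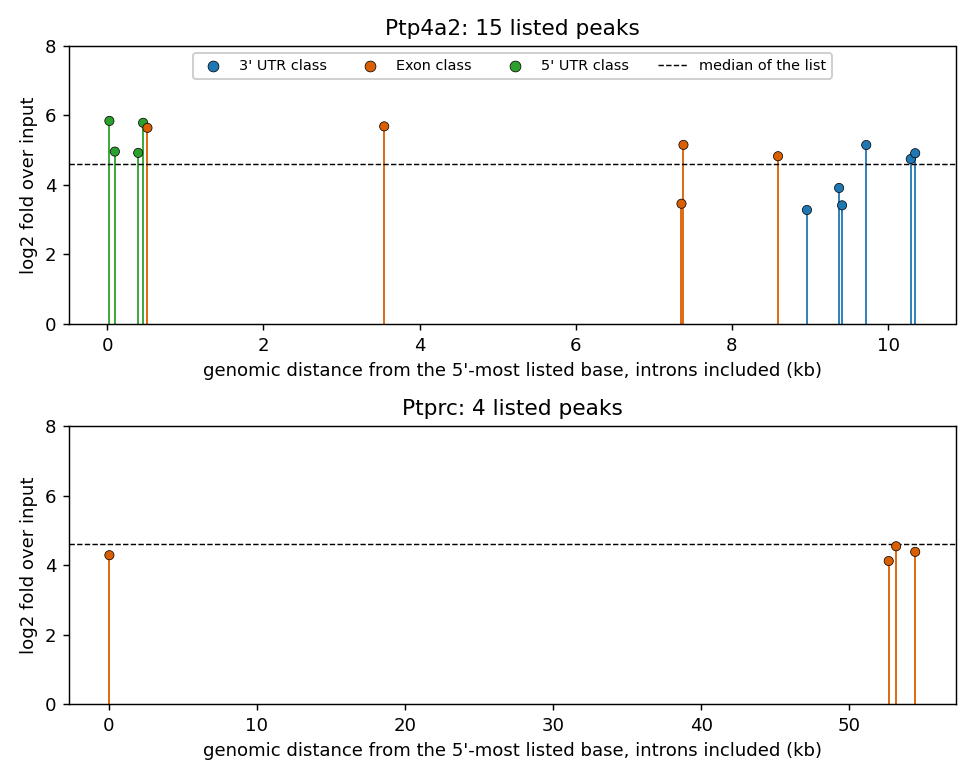
Log2 fold over input of each peak of Ptp4a2 (upper panel) and Ptprc (lower panel) against genomic distance in kb from the 5'-most listed base in the direction of transcription, coloured by the authors' class, with the list median of 4.60 dashed. Ptp4a2 has its highest peaks, 5.84 and 5.79, at the 5' end, and Ptprc has a single peak 52516 nt upstream of the other 3.

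Ptprc (ENSMUSG00000026395, chromosome 1, minus strand) had 4 peaks, fewer than Ptpre and Ptp4a2 but more than the median of 2 peaks per gene symbol, and all were weak. In transcript order the log2 folds were 4.29 at 138099867 to 138099981, 4.12 at 138047291 to 138047350, 4.55 at 138046789 to 138046853 and 4.38 at 138045488 to 138045579. The most upstream peak was separated from the rest by 52516 nt of the genome, introns included, while the other 3 lay within 1863 nt. None exceeded the median of the list in fold, and none did in -log10 p, where they stood at 3.27, 3.34, 4.53 and 4.11.

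The 4 Ptprc peaks differed little among themselves in fold. Their steps fitted 1 input read in each library and geometric means of 10.0 to 13.4 reads per immunoprecipitate. Numbers this small leave a wide counting error, so the order of the 4 peaks cannot be read from them. They were single peaks of 60 to 115 nt, none of which touched another. No listed peak had a log2 fold under 3.00, and the lowest -log10 p in the list was 3.07. The Ptprc peak with the lowest -log10 p was near that limit, and weaker binding on its 3' UTR or elsewhere would not be seen.

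Genes with the same number of peaks and the same classes were looked for as the nearest in pattern, with the difference of the strongest log2 fold as the measure. For Ptprc, with 4 peaks in exons alone, 18 other genes qualified. The nearest were Cchcr1 and Rpl35 (4.66 each, a difference of 0.11) and Rps16 (4.43, 0.11), each with 3 separate stretches. Exon peaks alone were found for 23.7% of genes with a peak. No other gene had 16 peaks in the 3' UTR alone, and none had 15 peaks in all 3 classes, so Ptpre and Ptp4a2 had no such neighbour.

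No other gene's peaks lay close to those of the 3 genes. The nearest was on Khdrbs1, 123473 nt from the Ptp4a2 peaks. For Ptprc it was 2815721 nt away, on Timm17a, and for Ptpre 4115968 nt away, on Bub3.

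Among other tyrosine phosphatases and their relatives peaks were fewer and mostly weaker. Among 93 such genes matched in RefSeq, 14 had a peak (15.1%), and without the 3 chosen genes 11 of 90 (12.2%), beside 7.33% of all protein-coding genes. No expression values of 32D cells were at hand to narrow the background, so these shares do not separate binding from expression. By group, 4 of 20 receptor-type phosphatases, 1 of 17 non-receptor ones, 1 of 3 PRL enzymes and 8 of 53 dual-specificity and related phosphatases had a peak. A peak above the median fold of the list was held by 7 of the 93, among them Ptpre, Ptp4a2, Ptprs, Ptprj, Cdc25c and Mtmr12, beside 3.95% of all protein-coding genes. Ptpre and Ptp4a2 were chosen with such folds known, and without the 3 chosen genes the count was 5 of 90 (5.56%). Taking the strongest peak of each gene, the 11 others had a median log2 fold of 4.60, against 4.69 over all gene symbols in the list.

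Of the other receptor-type enzymes, Ptprs, a receptor for proteoglycans in neurons, came closest to Ptpre. It had 6 peaks, all in the 3' UTR, in 3 stretches, with log2 folds of 4.08 to 6.66 and a -log10 p of up to 34.7. Its strongest peak lay at chromosome 17, 56719743 to 56719792. Ptprj, which encodes the surface phosphatase CD148, had 3 peaks at 5.03, 5.41 and 5.47, with the highest in an exon. The non-receptor enzyme gene Ptpn18 had 4 peaks in 4 stretches, 3 of them in exons and 1 in the 5' UTR, with log2 folds of 3.65 to 4.55. In number and strength Ptpn18 was the phosphatase most like Ptprc, apart from its 5' UTR peak.

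Of the related phosphatases, Cdc25c, which activates the mitotic kinase, had 3 peaks in the 5' UTR of up to 4.96. The myotubularin genes Mtmr12 and Mtmr2, which belong to a family of lipid phosphatases and their inactive relatives, had 3 peaks of up to 4.66 and 1 of 4.60. The MAP kinase phosphatases Dusp4 and Dusp6 had 1 peak each, at 4.46 and 4.18, and Dusp11, an RNA phosphatase, had 1 at 4.31. Ssh2, a cofilin phosphatase, had 2 of up to 4.18.

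Kinases and partners of the 3 enzymes were bound in 4 of 30 cases (13.3%, beside 7.33% of all protein-coding genes). Jak1, a cytokine receptor kinase that CD45 can restrain, had 2 touching peaks in the 5' UTR at 5.75 and 5.58. Csf2rb, the shared receptor chain for interleukin-3, had 3 peaks in the 3' UTR of up to 5.0. Cbl, an adaptor and ubiquitin ligase, had 1 at 4.55, and the Src-family kinase gene Lyn had 1 at 4.11. All 4 stood below Ptpre, and Jak1 with 5.75 was close to the 5.84 of Ptp4a2. Jak1 and Csf2rb exceeded the strongest Ptprc peak of 4.55, Cbl was level with it and Lyn was lower.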

How the data were processed

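eCLIP was run on 32D cells, with 2 NAT10 immunoprecipitates and 2 inputs. The members and gene lists were chosen with earlier results of these data known. The authors deposited 1 peak list built on GRCm39, per the submitters' processing notes. Since none of the deposited p-values is below 3, they were taken to be -log10 p; any adjustment is not stated. The deposited fold was taken to be the log2 ratio of immunoprecipitate over input, because its values follow read steps. Fold and p are the authors' values, used only to describe and rank peaks. Aligner, peak caller, thresholds and the joining of replicates are not stated in the sources used.

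With Python 3.11.15 and pandas 2.3.3, the 34 peaks listed under a second gene were counted once, and positions were counted from 1. Touching peaks of a gene were joined into stretches. Read steps were fitted by taking 4 to the power of each log2 fold as a constant times a ratio of whole read products, within 0.0001 of a whole number (or 1e-08 of its size, if larger) and with input products of at most 60. The procedure was tested on simulated data. Of 1626 symbols 1609 matched the RefSeq gene table of GRCm38.p6, which served for names and gene types only. Named genes were the 3 members, every gene of the phosphatase and partner lists with a peak, and up to 3 nearest genes by pattern, of which some are not reported here; stretches of other genes and neighbours were named after their values were seen. No reference sequence of the files' build was used, so no peak sequence is shown. No test of immunoprecipitate against input was possible without library values.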

Additional observations from a re-analysis of the deposited data

How the results depend on the processing

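Peak numbers depended on how touching pieces were counted. Joining touching peaks left 4 for Ptpre instead of 16, and joining peaks within 50 nt left 3; for Ptp4a2 the latter left 9 instead of 15. With a -log10 p above the list median, Ptp4a2 kept 8 peaks. Ptprc kept 0 of its 4 peaks with a fold above the list median and 0 with a -log10 p above it. Strength read from the peak with the highest p gave Ptpre a log2 fold of 9.14 instead of 9.49. The median peak was 8.39 for Ptpre, 4.92 for Ptp4a2 and 4.34 for Ptprc, in the same order as their strongest peaks. With a fold above the list median 7 phosphatase genes had a peak instead of 14, beside 3.95% of all protein-coding genes, and 5 of 90 (5.56%) without the 3 chosen genes. The other 11 of 22 alternative values moved less than 1.5 times, named the same strongest peak, or stayed within an exact 95% counting interval. The interval was used only for the 3' UTR share of the 35 peaks (62.9%, or 52.0% of bases). Over the whole list this share was 57.6% of peaks and 62.1% of bases. The interval takes the 35 peaks as independent, which touching pieces of 1 gene are not. It therefore does not measure how stable the share is. No paired analysis was possible because the list has no value per library, and for the same reason no replicate could be left out. Library totals were not used here. The smallest read numbers that fitted had geometric means of 10.0 to 13.4 per immunoprecipitate for Ptprc, which limits how such peaks can be ranked. For the Ptp4a2 piece at 3.46 the smallest was 6.32. Its -log10 p of 5.61 exceeded the 5.38 of a Ptp4a2 peak that fitted 16.3, so 6.32 is a lower bound and not its depth.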
